A study of Mus musculus with 10 samples.

Results

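The type I interferon response genes described here are 39 mouse genes, taken by name from a table of 23284 gene symbols, and all 39 were found in it. They comprise 4 cytosolic sensors of foreign nucleic acid (Ddx58, Ifih1, Dhx58 and Zbp1), 10 signalling genes and regulators (Irf1, Irf7, Irf9, Stat2, Usp18, Trim25, Trim30a, Parp9, Dtx3l and Parp14) and 25 effectors (Ifit1, Ifit2, Ifit3, Isg15, Mx1, Mx2, Oas1a, Oas2, Oas3, Oasl1, Oasl2, Rsad2, Cmpk2, Bst2, Ifitm3, Eif2ak2, Adar, Samd9l, Ifi44, Ifi35, Xaf1, Rtp4, Lgals3bp, Sp100 and Pml). No measured value was used to choose them, although earlier results of these data were known when they were proposed. Their RNA was measured in 3 endothelial populations of untreated wild-type C57BL/6 (B6) mice aged 6 to 8 weeks. Lymph nodes gave lymphatic endothelial cells (LN-LEC) for 4 libraries and blood endothelial cells (LN-BEC) for 3, and the diaphragm gave lymphatic endothelial cells (D-LEC) for 3. Cells carrying CD45 were depleted and CD31-positive cells were sorted by podoplanin (PDPN). Each library came from cells pooled over several mice, and each lymph node library over nodes of several sites, so that the spread between libraries is a spread between pools and not between animals. The organ of origin and the digestion and sort of that organ's cells cannot be told apart in the comparisons with D-LEC.

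Type I interferons (the alpha and beta interferons and their relatives) bind a receptor made of IFNAR1 and IFNAR2. The kinases JAK1 and TYK2 then phosphorylate STAT proteins, and STAT2 joins IRF9 in the complex ISGF3. ISGF3 binds the interferon-stimulated response element (ISRE) in promoters and turns on several classes of genes, among them the sensors that detect viral RNA, the factors that amplify or end the signal, and the effectors that act on viruses inside the cell. Many of these genes are transcribed at a low level without infection, through tonic interferon signalling or through other factors such as IRF1.

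The element that names the pathway was looked for in the reference promoters of the members. RefSeq windows from 250 bases before to 50 bases after a transcription start (build GRCm38.p6) were at hand for 30 of the 39 members. Dhx58, Zbp1, Usp18, Parp9, Parp14, Mx1, Mx2, Oas2 and Rtp4 were not among them. The core letters of the ISRE, GAAANNGAAA or TTTCNNTTTC on the other strand, occurred in 13 of the 30 (43.3%), against 3.99% of all genes with a window and 3.76% of the 11211 tested genes with one. The 13 were Ddx58, Ifih1, Stat2, Trim30a, Ifit1, Ifit3, Isg15, Oas1a, Oas3, Rsad2, Bst2, Ifitm3 and Eif2ak2. The letters of the gamma-activated site, TTCNNNGAA, which read the same on both strands, occurred in 8 of the 30 (26.7%), against 9.55% of all genes and 8.41% of the tested genes. Matches of the 2 motifs may overlap each other. A match describes letters in a window and was not tested for binding. The 150 bases before the start of 6 effectors are printed here from 5′ to 3′ on the strand of the gene, with the ISRE matches in capitals, because their matches lie close to the start while their levels across the populations, given further on, ranged from modest to large differences. They are Isg15 (chr4:156200819-156200968, minus strand), Ifit1 (chr19:34640739-34640888, plus strand), Bst2 (chr8:71537473-71537622, minus strand), Oas1a (chr5:120907526-120907675, minus strand), Oas3 (chr5:120777660-120777809, minus strand) and Rsad2 (chr12:26456453-26456602, minus strand).
Isg15: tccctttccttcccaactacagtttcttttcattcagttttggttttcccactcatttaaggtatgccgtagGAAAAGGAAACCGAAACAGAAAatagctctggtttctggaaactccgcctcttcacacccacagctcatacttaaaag
Ifit1: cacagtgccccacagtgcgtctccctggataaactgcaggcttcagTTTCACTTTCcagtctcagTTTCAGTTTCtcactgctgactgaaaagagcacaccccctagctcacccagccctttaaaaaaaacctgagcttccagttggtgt
Bst2: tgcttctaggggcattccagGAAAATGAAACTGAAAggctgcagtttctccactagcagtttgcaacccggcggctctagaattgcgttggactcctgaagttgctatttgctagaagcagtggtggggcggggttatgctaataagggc
Oas1a: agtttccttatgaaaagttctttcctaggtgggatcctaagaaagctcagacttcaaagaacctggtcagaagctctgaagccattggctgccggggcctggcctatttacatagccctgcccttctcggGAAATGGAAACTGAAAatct
Oas3: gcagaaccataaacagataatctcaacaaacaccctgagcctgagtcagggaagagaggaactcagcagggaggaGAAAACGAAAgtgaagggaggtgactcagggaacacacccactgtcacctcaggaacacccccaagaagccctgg
Rsad2: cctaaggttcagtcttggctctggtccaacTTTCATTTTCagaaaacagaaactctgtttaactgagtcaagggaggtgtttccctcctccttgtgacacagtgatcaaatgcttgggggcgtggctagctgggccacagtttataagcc
Isg15 held 3 overlapping matches, Ifit1 held 2 apart from each other, Bst2 and Oas1a held 2 overlapping matches each, and Oas3 and Rsad2 held 1 each. The match of Oas1a began 20 bases before the start and that of Bst2 130 bases before it. Among the 17 members whose window held no match were Irf1, Irf7, Irf9, Oasl2 and Sp100.

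The libraries held 22429940 to 48906070 counted fragments, so that 3 fragments correspond to 0.0613 to 0.134 counts scaled to the library total (CPM). Levels are given as normalized counts, which are counts divided by a size factor for the library, as mean ± SD over libraries. Between genes they were compared only per kilobase of exon. Tests are edgeR quasi-likelihood tests fitted to all 15375 genes tested, with p-values adjusted over all of them, and a gene was called at an adjusted p under 0.05. Log2 fold changes carry their SE. Log2 levels of libraries of the same population correlated at 0.973 to 0.987, and the libraries that stood farthest from their own population were LN-BEC replicate 3 and LN-LEC replicate 4. Without both, 34, 35 and 24 members were called in the comparisons of LN-LEC with D-LEC, of LN-BEC with D-LEC and of LN-LEC with LN-BEC, against 34, 37 and 25 with all libraries. Markers of the lymphatic and blood lineages fitted the labels: the 5 lymphatic markers (Lyve1, Pdpn, Prox1, Reln and Flt4) summed to 94670 to 119400 in LN-LEC libraries and 387200 to 415600 in D-LEC, against 2891 to 7955 in LN-BEC. Pdpn encodes the protein by which the cells were sorted, so that its own fit follows from the sort. The 4 blood endothelial markers (Nrp1, Flt1, Vwf and Notch4) summed to 69500 to 72710 in LN-BEC libraries and to 1374 at most in any other.

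Endothelium of the lymph node, lymphatic and blood alike, held more RNA of these genes than lymphatic endothelium of the diaphragm. In LN-LEC against D-LEC, 34 of the 39 members were higher in LN-LEC, none was higher in D-LEC and 5 did not pass the test (Irf9, Ifit3, Adar, Samd9l and Ifi35). In the same comparison 24.1% of all genes tested were called higher in LN-LEC and 21.7% in the direction of D-LEC. The median log2 fold change of the members was 1.28, and that of all genes tested was 0.03. In LN-BEC against D-LEC, 37 members were higher in LN-BEC, none was higher in D-LEC, and Irf9 and Ifitm3 did not pass. Over all genes 25.6% were called higher in LN-BEC and 22.4% in the direction of D-LEC, and the median of the members was 1.47 against 0.05. In both comparisons D-LEC supplied the same 3 libraries. All LN-LEC libraries lay above all D-LEC libraries for 34 members (25.3% of all genes) and all LN-BEC libraries did so for 37 (29.0% of all genes). By population means, D-LEC was the lowest of the 3 for 37 of the 39 members and the highest for none.

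**Figure D1:**
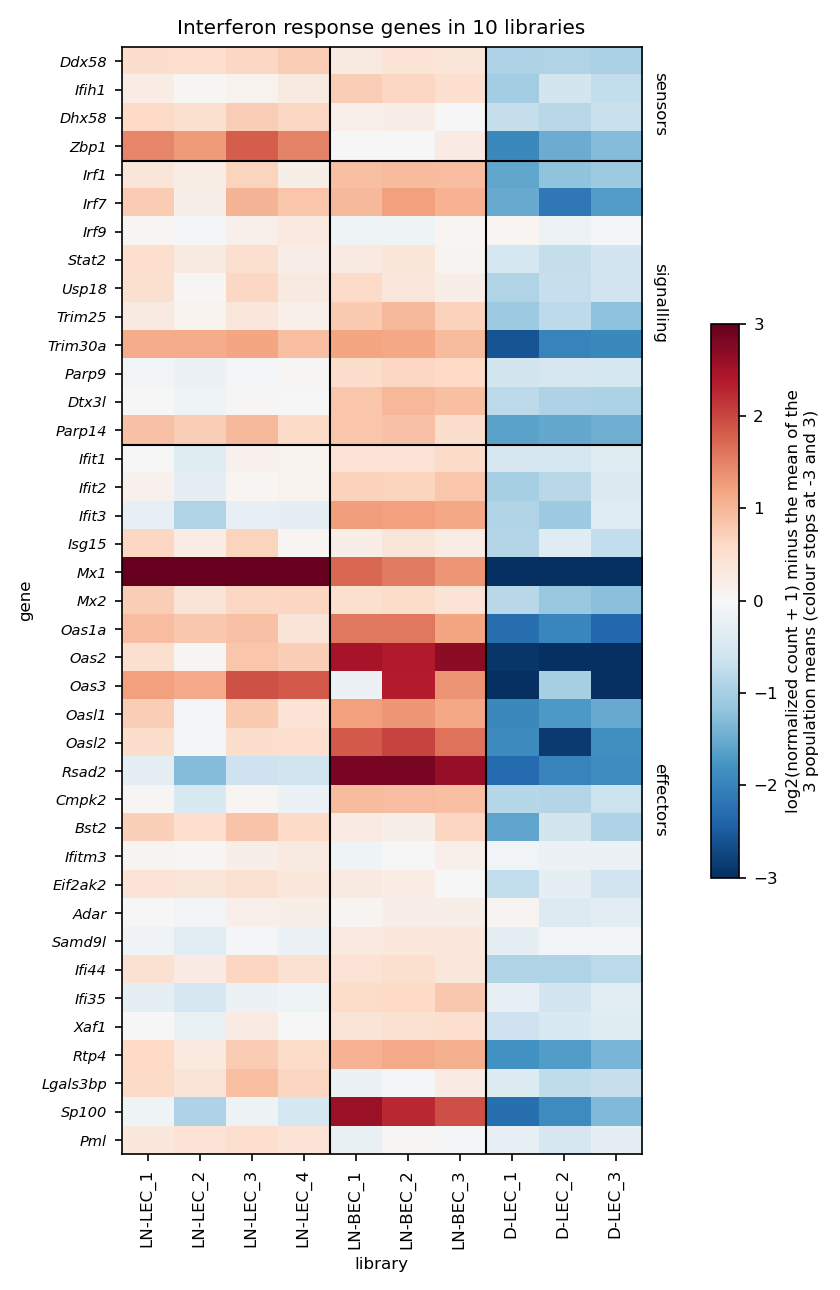
Heat map of the 39 genes (rows, by role) in the 10 libraries (columns). Colour is log2 of the normalized count plus 1, minus the mean of the 3 population means of that gene, with colours stopped at -3 and 3. The D-LEC columns are blue for nearly every gene, the deepest for Mx1, Oas2 and Oas3. The red in the LN-BEC columns is deepest for Rsad2, Oas2 and Sp100, and in the LN-LEC columns for Mx1.

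The sensors were all higher in the lymph node, 4 of 4 in each comparison with D-LEC. Ddx58 encodes RIG-I, the helicase that recognizes viral RNA by its end. It stood at 4355 ± 333.8 in LN-LEC and 3648 ± 185.8 in LN-BEC, against 1503 ± 38.94 in D-LEC (n = 4, 3 and 3 libraries here and in every mean that follows), with log2 fold changes over D-LEC of 1.56 ± 0.09 in LN-LEC (adjusted p = 5.2e-09) and 1.28 ± 0.09 in LN-BEC (adjusted p = 4.3e-08). Ifih1 encodes the related helicase MDA5, which binds long double-stranded RNA, and its mean was 1588 ± 118.2 in LN-LEC and 2199 ± 194.8 in LN-BEC, against 844.1 ± 142.6 in D-LEC. Dhx58, which encodes LGP2, a helicase that tunes the other RNA sensors, stood at 1116 ± 82.21, 796.4 ± 57.84 and 439.8 ± 25.21 in the same order. Both passed the test against D-LEC in both lymph node populations.

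Zbp1, a sensor of nucleic acid in the Z form that can start necroptosis, showed the widest range among the sensors. The 4 LN-LEC libraries held 1434, 1263, 1842 and 1452 normalized counts of it. In LN-BEC there were 514.7, 512.8 and 613.4, and in D-LEC 136.2, 184.4 and 210.7. The 3 populations did not overlap, in the order LN-LEC, LN-BEC, D-LEC. The log2 fold change was 3.09 ± 0.17 for LN-LEC over D-LEC (8.51-fold, adjusted p = 6.3e-09), 1.62 ± 0.17 for LN-BEC over D-LEC (adjusted p = 3.5e-06) and 1.47 ± 0.16 for LN-LEC over LN-BEC (adjusted p = 4.3e-06).

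Of the 10 signalling genes, 9 were higher than D-LEC in each lymph node population, and Irf9 was the exception in both. Irf7 encodes the factor that amplifies interferon production once interferon has been sensed. It stood at 1791, 1202, 2153 and 1888 in LN-LEC and 2072, 2466 and 2187 in LN-BEC, against 372.1, 237.5 and 330.5 in D-LEC. Every lymph node library thus lay above every D-LEC library, while LN-LEC and LN-BEC overlapped. The log2 fold change over D-LEC was 2.52 ± 0.21 in LN-LEC (5.72-fold, adjusted p = 1.5e-06) and 2.85 ± 0.22 in LN-BEC (7.2-fold, adjusted p = 6.2e-07).

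Irf1 encodes a factor that several cytokines induce and that can act on interferon response genes without ISGF3. Its LN-LEC libraries held 2506, 2272, 3095 and 2181, its LN-BEC libraries 3604, 3710 and 3671, and its D-LEC libraries 659.7, 841.6 and 908.9. The populations did not overlap, with LN-BEC highest. Irf1 was 3.17-fold higher in LN-LEC than D-LEC (log2 1.66 ± 0.14, adjusted p = 3.2e-07) and 4.56-fold higher in LN-BEC (log2 2.19 ± 0.15, adjusted p = 2.9e-08).

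The subunits of ISGF3 gave different calls. Stat2 stood at 4922, 4130, 4811 and 3990 in LN-LEC and 4156, 4437 and 3667 in LN-BEC, against 2415, 2110 and 2308 in D-LEC, so that both lymph node populations lay above D-LEC. Its log2 fold change over D-LEC was 0.99 ± 0.10 in LN-LEC (adjusted p = 2.7e-06) and 0.85 ± 0.11 in LN-BEC (adjusted p = 1.7e-05). Irf9, the DNA-binding subunit, stood at 4296, 3965, 4542 and 5003 in LN-LEC and 3748, 3765 and 4302 in LN-BEC, against 4273, 3681 and 3917 in D-LEC, and all 3 populations overlapped. Against D-LEC its log2 fold change was 0.19 ± 0.10 in LN-LEC (adjusted p = 0.12) and -0.001 ± 0.101 in LN-BEC (adjusted p = 1). Irf9 was the only member whose mean was lowest in LN-BEC. Per kilobase of exon it was the fourth most abundant member in D-LEC (1472 ± 110.9) and the sixth in LN-LEC (1656 ± 162.7).

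Trim30a, a regulator that restrains Toll-like receptor signalling, had the largest fold change among the signalling genes in both comparisons with D-LEC. It stood at 9272, 9357, 9801 and 8053 in LN-LEC and 9726, 9559 and 8349 in LN-BEC, against 715.2, 1075 and 1134 in D-LEC. LN-LEC and LN-BEC overlapped, and both lay more than 7 times above the highest D-LEC library. The log2 fold change over D-LEC was 3.24 ± 0.16 in LN-LEC (adjusted p = 2.5e-09) and 3.24 ± 0.16 in LN-BEC (adjusted p = 2.6e-09), and 5.21% of its 100-base exon windows have a second copy in the genome.

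Parp14, Dtx3l and Parp9 lie together on chromosome 16 (mm9, 35832964 to 35972707) and encode ADP-ribosyltransferases and, in DTX3L, the ubiquitin ligase that partners PARP9. Parp14 stood at 6044, 5435, 6393 and 4836 in LN-LEC and 5800, 6034 and 4679 in LN-BEC, against 1077, 1126 and 1179 in D-LEC. The lymph node populations overlapped each other and lay above D-LEC, by 5.11-fold in LN-LEC (log2 2.35 ± 0.12, adjusted p = 2.7e-09) and 4.9-fold in LN-BEC (log2 2.29 ± 0.13, adjusted p = 3.7e-09). Its neighbours differed less and showed another order. Dtx3l averaged 9517 ± 446.8 in LN-LEC and 18070 ± 1056 in LN-BEC, against 5212 ± 356.1 in D-LEC, and Parp9 averaged 1289 ± 76.19, 2019 ± 70.98 and 929 ± 11.33. Parp9 and Dtx3l are read from opposite strands and overlap over 334 exon bases, 9.37% of Parp9 and 6.45% of Dtx3l, and pairs falling on both genes were not counted.

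The remaining regulators were Usp18 and Trim25. Usp18 encodes the protease that removes ISG15 from proteins and blocks the receptor, and it stood at 2858 ± 485.5 in LN-LEC and 2888 ± 379.6 in LN-BEC, against 1354 ± 152.7 in D-LEC, 2.14-fold higher in each lymph node population than in D-LEC (adjusted p = 2.7e-05 in LN-LEC and 3.8e-05 in LN-BEC). Trim25, a ubiquitin ligase that acts with RIG-I, stood at 3945 ± 300.4, 6013 ± 609.8 and 1658 ± 267.4 in the same order and was called in both.

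**Figure D2:**
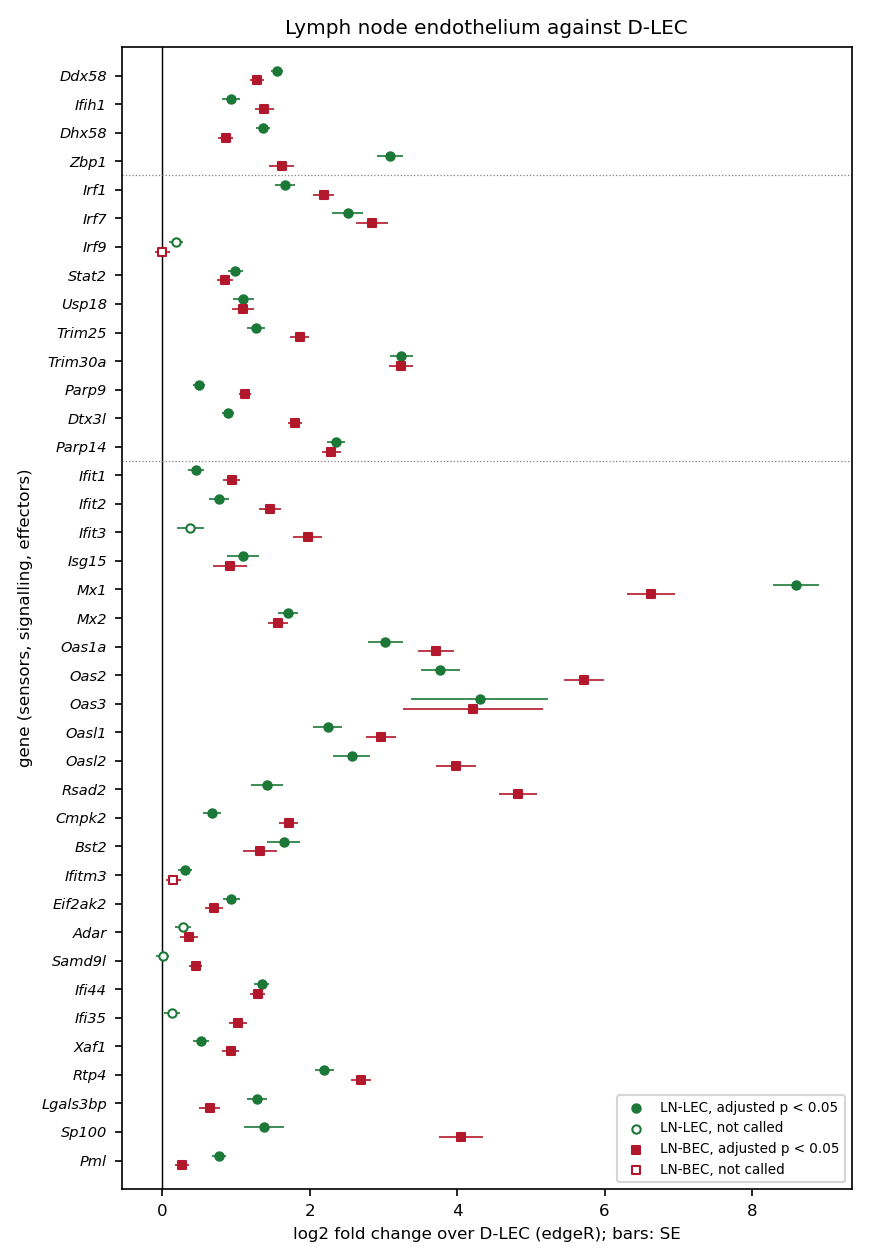
Log2 fold change over D-LEC (horizontal axis, edgeR, bars are SE) for each of the 39 genes (vertical axis, by role), in LN-LEC (green circles, 4 libraries) and LN-BEC (red squares, 3 libraries). Open symbols did not pass an adjusted p of 0.05. No called symbol lies left of 0, Mx1 is farthest right at 8.59 and 6.63, and Irf9 is open in both populations.

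Among the 25 effectors, 21 exceeded D-LEC in LN-LEC and 24 did so in LN-BEC. At 5-fold or more, 9 members of all roles were called higher in LN-LEC (8.12% of all genes), namely Zbp1, Irf7, Trim30a, Parp14, Mx1, Oas1a, Oas2, Oas3 and Oasl2. In LN-BEC 11 were called at that size (10.4% of all genes), namely Irf7, Trim30a, Mx1, Oas1a, Oas2, Oas3, Oasl1, Oasl2, Rsad2, Rtp4 and Sp100.

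Mx1 (mm9 chromosome 16, 97668642 to 97684513, minus strand) encodes a dynamin-like GTPase that blocks influenza and related viruses, although B6 mice, like most laboratory strains, carry an allele that makes no functional protein. Its normalized counts were 2030, 1287, 1375 and 1580 in LN-LEC and 459.6, 407.3 and 347.7 in LN-BEC, against 1.26, 7.01 and 3.31 in D-LEC. The D-LEC values rest on 1, 7 and 4 fragments, against libraries of 23375259 to 35811852. The 3 populations were fully apart. Mx1 was 386-fold higher in LN-LEC than D-LEC (log2 8.59 ± 0.31, adjusted p = 2.7e-10) and 98.8-fold higher in LN-BEC (log2 6.63 ± 0.33, adjusted p = 3.4e-09). Without D-LEC replicate 2, which holds 7 of the 12 D-LEC fragments, these were 609-fold and 156-fold. Mx2 lies beside Mx1 and showed no such range: 483.8 ± 47.98 in LN-LEC and 444.9 ± 24.22 in LN-BEC, against 151.4 ± 23.48 in D-LEC, 3.26-fold and 2.96-fold over D-LEC (adjusted p = 1.7e-07 and 4.8e-07).

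The 2 Oas families make or resemble the enzymes that synthesize oligoadenylates and so activate RNase L. Oas2, Oas3 and Oas1a lie on the minus strand of chromosome 5 (mm9, 121180342 to 121357534). Oas2 stood at 103.7, 76.2, 132.3 and 123.8 in LN-LEC and 415.8, 387.4 and 480 in LN-BEC, against 8.83, 8.02 and 7.44 in D-LEC. Its D-LEC values rest on 7, 8 and 9 fragments. The populations were apart, with LN-BEC highest, and Oas2 was 13.7-fold over D-LEC in LN-LEC (log2 3.77 ± 0.26, adjusted p = 5.4e-08) and 52.7-fold in LN-BEC (log2 5.72 ± 0.27, adjusted p = 9.3e-10).

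Oas1a stood at 169.8, 156.1, 165.1 and 115.7 in LN-LEC and 267, 266.4 and 204.8 in LN-BEC, against 17.7, 22 and 16.5 in D-LEC, again with no overlap. It was 8.14-fold over D-LEC in LN-LEC (adjusted p = 1.7e-07) and 13.1-fold in LN-BEC (adjusted p = 2.5e-08), and 54.7% of its 100-base exon windows have a second copy in the genome, so that its counts are uncertain. Oas3 was close to the limit of detection. It stood at 27.2, 25.4, 44.1 and 42.1 in LN-LEC and 9.63, 60.5 and 29.4 in LN-BEC, against 0, 5.01 and 0 in D-LEC, where 5 fragments in 1 library are all there is. Its fold over D-LEC was 19.8 in LN-LEC (adjusted p = 0.002) and 18.6 in LN-BEC (adjusted p = 0.0026). Without D-LEC replicate 2 the 2 folds were 292 and 274, without D-LEC replicate 3 they were 12.6 and 11.8, and without LN-BEC replicate 2 the fold in LN-BEC was 10.7, so that the size of the difference is not known.

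Oasl2 and Oasl1, side by side on the plus strand of chromosome 5 (mm9, 115346943 to 115387920), encode OAS-like proteins, of which OASL1 holds back the translation of Irf7. Oasl2 stood at 1729, 1162, 1727 and 1702 in LN-LEC and 4259, 4861 and 3687 in LN-BEC, against 317.9, 162.3 and 332.2 in D-LEC. The populations did not overlap, and Oasl2 was 5.93-fold over D-LEC in LN-LEC (log2 2.57 ± 0.25, adjusted p = 1.6e-05) and 15.8-fold in LN-BEC (log2 3.99 ± 0.28, adjusted p = 7.9e-07). Oasl1 stood at 574.2, 336.4, 591.4 and 451.4 in LN-LEC and 806.2, 859.6 and 770.9 in LN-BEC, against 89.6, 102.2 and 119.8 in D-LEC. It followed the same order without overlap, at 4.73-fold (adjusted p = 5.2e-07) and 7.79-fold (adjusted p = 4.1e-08).

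Rsad2 encodes viperin, an enzyme that makes a chain-terminating nucleotide, and lies on chromosome 12 (mm9, 27127608 to 27141317, minus strand) beside Cmpk2, which encodes a nucleotide kinase of the mitochondrion. Rsad2 stood at 3016, 1475, 2352 and 2387 in LN-LEC and 26100, 26100 and 22020 in LN-BEC, against 713.9, 907.7 and 987.4 in D-LEC. The lowest LN-BEC library was over 7 times the highest LN-LEC library, and LN-LEC lay above D-LEC. It was 28.5-fold over D-LEC in LN-BEC (log2 4.83 ± 0.26, adjusted p = 6.4e-08) and 2.69-fold in LN-LEC (log2 1.43 ± 0.22, adjusted p = 0.0003). Per kilobase of exon it was the second most abundant member in LN-BEC (6536 ± 622.6), after Ifitm3. Cmpk2 took the same order with smaller differences, 739.9 ± 114.7 in LN-LEC and 1535 ± 31.95 in LN-BEC, against 467.9 ± 40.86 in D-LEC.

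Sp100 and Pml encode the main proteins of PML nuclear bodies, which silence viral genomes, and they did not follow the same order. Sp100 stood at 412.2, 238.7, 404.8 and 316.2 in LN-LEC and 2742, 2178 and 1720 in LN-BEC, against 93.3, 122.2 and 180.1 in D-LEC. The populations did not overlap, and Sp100 was 16.6-fold over D-LEC in LN-BEC (log2 4.05 ± 0.30, adjusted p = 1e-06) and 2.6-fold in LN-LEC (log2 1.38 ± 0.27, adjusted p = 0.002). Of its exon windows 19.8% have a second copy, which makes its level uncertain. Pml averaged 1878 ± 99.05 in LN-LEC and 1339 ± 116.3 in LN-BEC, against 1117 ± 110.8 in D-LEC, 1.71-fold and 1.21-fold over D-LEC (adjusted p = 1.5e-05 and 0.04). Its call in LN-BEC was lost without LN-LEC replicate 1 or 2, without LN-BEC replicate 2 or 3, and without D-LEC replicate 2 (adjusted p = 0.05 to 0.17).

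**Figure D3:**
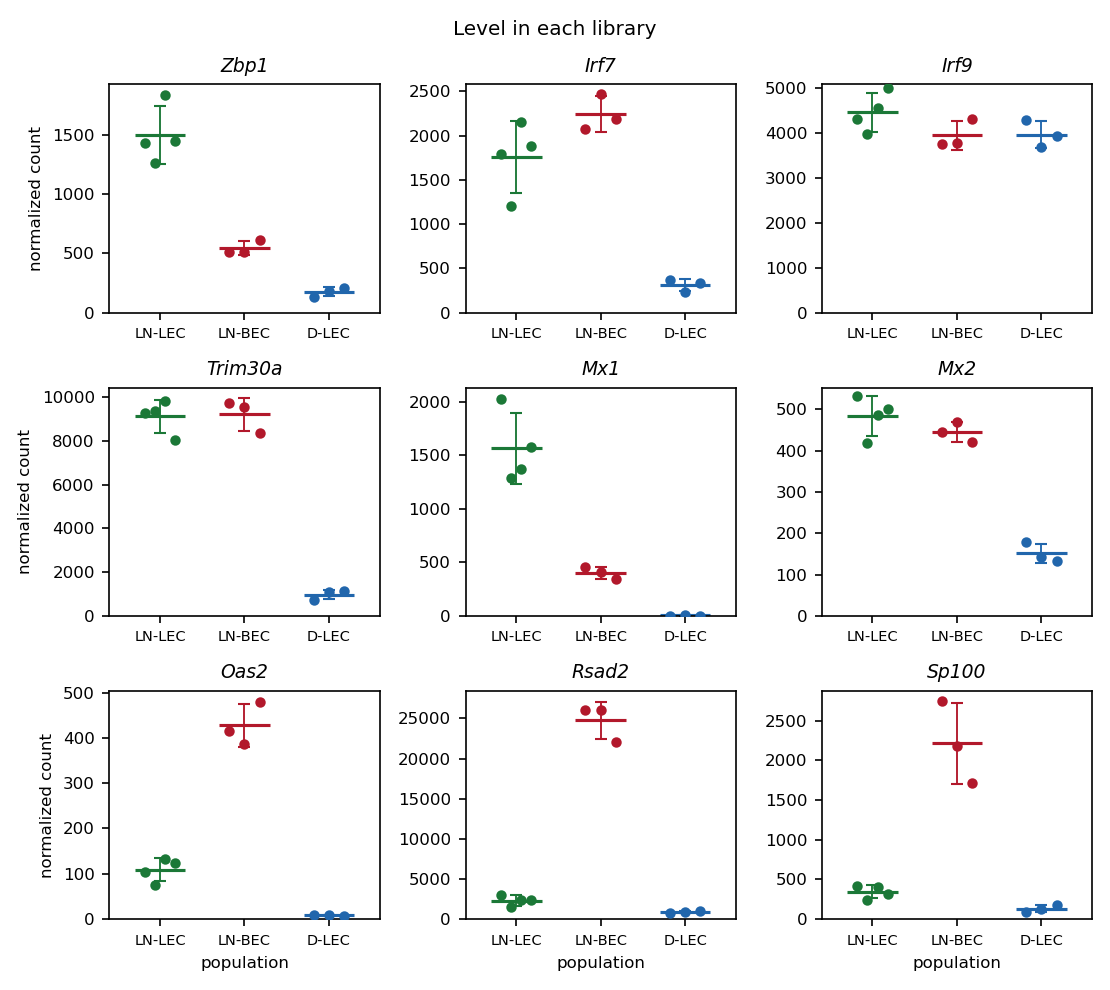
Normalized counts (vertical axes, linear from 0, each gene on its own scale) of 9 genes in the 3 populations. Points are libraries, bars are means with SD (n = 4, 3 and 3 from left to right). Zbp1 and Mx1 are highest in LN-LEC, Oas2, Rsad2 and Sp100 are highest in LN-BEC, the points of Trim30a and Mx2 overlap between the lymph node populations and lie above D-LEC, and the points of Irf9 overlap in all 3.

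Rtp4, whose protein restrains interferon responses, stood at 2224, 1809, 2480 and 2164 in LN-LEC and 3017, 3223 and 3103 in LN-BEC, against 417.5, 458.9 and 561.9 in D-LEC. It was 4.58-fold over D-LEC in LN-LEC (log2 2.20 ± 0.13, adjusted p = 8.7e-09) and 6.5-fold in LN-BEC (log2 2.70 ± 0.14, adjusted p = 1.5e-09), with no overlap between populations. Bst2 encodes tetherin, which holds budding virions to the cell. It averaged 4304 ± 462.5 in LN-LEC and 3500 ± 613.6 in LN-BEC, against 1391 ± 468.2 in D-LEC, 3.13-fold and 2.52-fold over D-LEC (adjusted p = 0.00015 and 0.00078).

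Ifit1 encodes a protein that binds RNA lacking the host's cap methylation. The Ifit genes differed by 1.3-fold to 1.71-fold between LN-LEC and D-LEC. Ifit1, Ifit2 and Ifit3 lie together on the plus strand of chromosome 19 (mm9, 34625184 to 34724499). Ifit1 averaged 1647 ± 235.5 in LN-LEC and 2331 ± 113.4 in LN-BEC, against 1217 ± 73.22 in D-LEC, and Ifit2 averaged 760.8 ± 91.14, 1249 ± 72.13 and 451.3 ± 95.69. Both passed the test in both comparisons, at 1.37-fold and 1.71-fold in LN-LEC and 1.92-fold and 2.77-fold in LN-BEC. Ifit3 averaged 897.3 ± 176.2, 2741 ± 95.75 and 699.6 ± 182.9, and it was called in LN-BEC (3.92-fold, adjusted p = 5.5e-06) but not in LN-LEC (1.3-fold, adjusted p = 0.11). For Ifit3, 29% of the exon windows have a second copy. Isg15, which encodes a ubiquitin-like protein, was low in counts. It averaged 158.7 ± 32.58 in LN-LEC and 142.2 ± 8.00 in LN-BEC, against 75.3 ± 14.1 in D-LEC, 2.13-fold and 1.89-fold over D-LEC (adjusted p = 0.00093 and 0.0042).

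Ifitm3, which blocks the fusion of viruses in endosomes, was the most abundant member in all 3 populations, at 127300 ± 9569 normalized counts per kilobase in LN-LEC and 114900 ± 11590 in LN-BEC, against 104100 ± 3927 in D-LEC. It was also among those that differed least, 1.24-fold over D-LEC in LN-LEC (log2 0.31 ± 0.10, adjusted p = 0.018) and 1.11-fold in LN-BEC (log2 0.15 ± 0.10, adjusted p = 0.25). Its call in LN-LEC was lost without D-LEC replicate 3 (adjusted p = 0.058). At the other end, Oas3 was the least abundant member per kilobase in each population (7.36 in LN-LEC and 7.04 in LN-BEC, against 0.35 in D-LEC).

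Other effectors with broad roles differed by small factors. Eif2ak2, which encodes PKR, the kinase that stops translation on sensing double-stranded RNA, averaged 3052 ± 140 in LN-LEC and 2613 ± 243.5 in LN-BEC, against 1614 ± 268.4 in D-LEC. Adar, the RNA editing enzyme that masks the cell's own double-stranded RNA, averaged 1803 ± 152.3, 1928 ± 76.39 and 1508 ± 286.1, and passed in LN-BEC (1.29-fold, adjusted p = 0.023) and not in LN-LEC (1.22-fold, adjusted p = 0.056). Both calls depend on single libraries. Adar was called in LN-LEC without LN-LEC replicate 2 or without D-LEC replicate 1, and in LN-BEC it was not called without LN-BEC replicate 2, D-LEC replicate 2 or D-LEC replicate 3. Samd9l, a growth-restraining antiviral factor, averaged 2657 ± 210.9 in LN-LEC and 3656 ± 29.51 in LN-BEC, against 2682 ± 201.5 in D-LEC, so that its LN-LEC and D-LEC libraries overlapped (log2 fold change 0.007 ± 0.087, adjusted p = 0.96) while LN-BEC lay above both. Ifi35 took the same form, at 836.6 ± 91.92, 1576 ± 153 and 777.1 ± 91.32.

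Ifi44, Xaf1 and Lgals3bp complete the list. Ifi44 averaged 3819 ± 446.7 in LN-LEC and 3710 ± 200 in LN-BEC, against 1520 ± 61.65 in D-LEC. Xaf1, which promotes apoptosis, averaged 2313 ± 293.9, 3089 ± 127.1 and 1629 ± 139. Lgals3bp, a secreted glycoprotein that binds galectins, averaged 8384 ± 1214, 5453 ± 808.9 and 3505 ± 461. All 3 passed the test against D-LEC in both lymph node populations, by 1.44-fold to 2.55-fold.

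Between the lymph node populations the members went both ways, and more of them were higher in the blood endothelium. LN-BEC held more of 19 members and LN-LEC of 6, and 14 did not pass. Over all genes 18.4% were called higher in LN-BEC and 19.8% higher in LN-LEC. The median log2 fold change of the members (LN-LEC over LN-BEC) was -0.33, against -0.008 for all genes. The libraries were fully apart for 19 members in favour of LN-BEC (22.5% of all genes) and 7 in favour of LN-LEC (22.4% of all genes). At 5-fold or more only Rsad2 and Sp100 were higher in LN-BEC (5.34% of all genes) and none was higher in LN-LEC (4.48% of all genes).

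Each role was then counted by direction. Of the 4 sensors 3 were higher in LN-LEC (Ddx58, Dhx58 and Zbp1) and Ifih1 was higher in LN-BEC. Of the signalling genes none was higher in LN-LEC and 4 were higher in LN-BEC (Irf1, Trim25, Parp9 and Dtx3l). Of the effectors 3 were higher in LN-LEC (Mx1, Lgals3bp and Pml) and 14 in LN-BEC (Ifit1, Ifit2, Ifit3, Oas1a, Oas2, Oasl1, Oasl2, Rsad2, Cmpk2, Samd9l, Ifi35, Xaf1, Rtp4 and Sp100). Whether the roles differ from one another in this respect was not tested.

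The largest differences toward LN-BEC were those of Rsad2 (10.6-fold, log2 -3.41 ± 0.22, adjusted p = 3.5e-07), Sp100 (6.39-fold, log2 -2.68 ± 0.25, adjusted p = 8.6e-06), Oas2 (3.86-fold, log2 -1.95 ± 0.19, adjusted p = 1.6e-06) and Ifit3 (3.02-fold, log2 -1.59 ± 0.18, adjusted p = 1.8e-05). Toward LN-LEC the largest were Mx1 (3.91-fold, log2 1.97 ± 0.18, adjusted p = 1.8e-06) and Zbp1 (2.77-fold). The other 4 called toward LN-LEC differed by 1.21-fold to 1.56-fold. Neighbouring genes did not always share a call: Mx1 was higher in LN-LEC while Mx2, beside it, was not called (log2 0.14 ± 0.12, adjusted p = 0.42), and Parp14 was not called (log2 0.06 ± 0.11, adjusted p = 0.72) while Parp9 and Dtx3l were higher in LN-BEC by 1.55-fold and 1.88-fold. All 3 Ifit genes, both Oasl genes, and both Rsad2 and Cmpk2 were higher in LN-BEC. Ddx58 lost its call without LN-BEC replicate 1 (adjusted p = 0.086), and Oas1a lost its own without LN-BEC replicate 1 or without LN-BEC replicate 2 (adjusted p = 0.051 each).

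**Figure D4:**
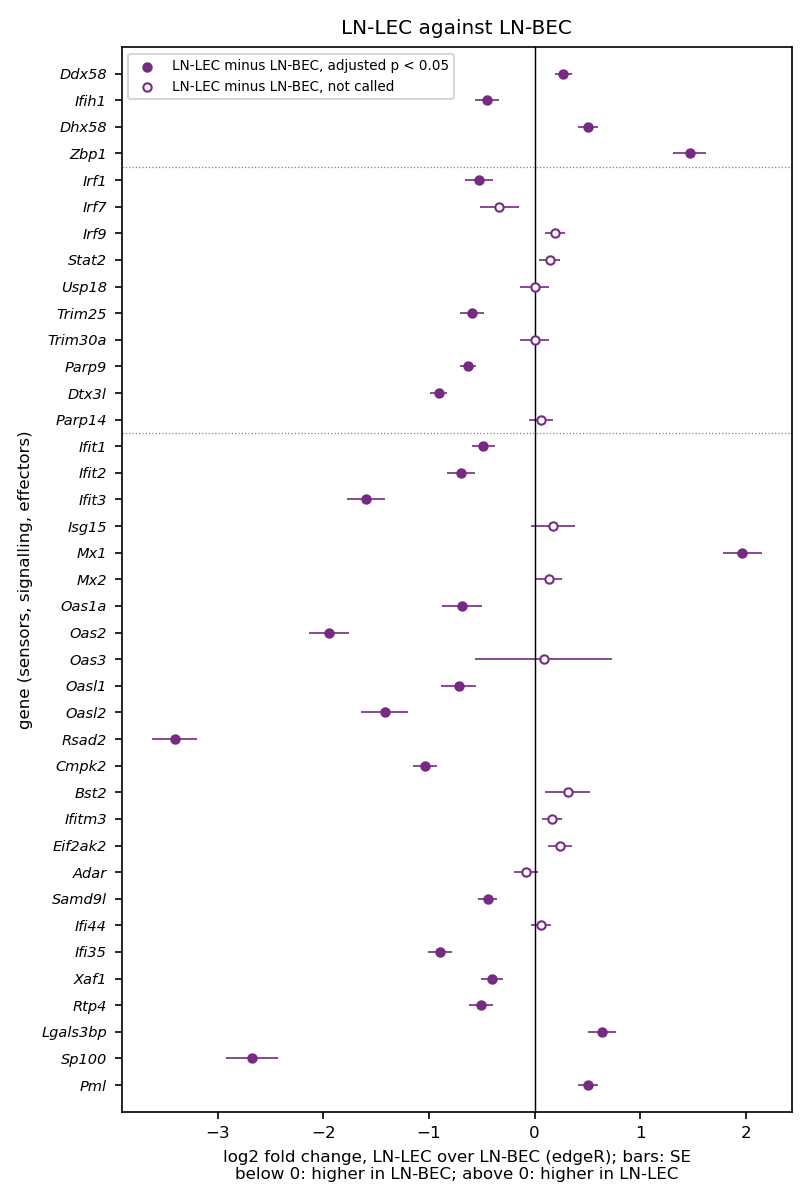
Log2 fold change of LN-LEC over LN-BEC (horizontal axis, edgeR, bars are SE, 4 and 3 libraries) for the 39 genes (vertical axis, by role). Filled symbols passed an adjusted p of 0.05. Most filled symbols lie left of 0, higher in LN-BEC, with Rsad2 (-3.41) and Sp100 (-2.68) farthest, and Mx1 (1.97) and Zbp1 (1.47) lie farthest right.

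The members also varied together within LN-LEC. LN-LEC replicate 2 was the lowest of the 4 libraries for 31 of the 39 members (79.5%) and the highest for none, whereas it was the lowest for 24.9% of all genes tested. LN-LEC replicate 3 was the highest for 23 members (59.0%), against 25.0% of all genes. In D-LEC, replicate 1 was lowest for 20 members (51.3%, against 39.2% of all genes), and in LN-BEC, replicate 2 was highest for 19 (48.7%, against 27.1%). The genes of 1 library share its pool of animals and its size factor, so that these counts describe libraries and carry no test. Irf7 in LN-LEC ranged from 1202 in replicate 2 to 2153 in replicate 3, and the lowest of these was still above the highest D-LEC library, 372.1.

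The other genes of the pathway were described by class, from a list that holds none of the members. The shares of all genes called against D-LEC (24.1% higher and 21.7% lower in LN-LEC, 25.6% higher and 22.4% lower in LN-BEC) are the background of each count below. The listed ligands were hardly detected. Of 10 interferon genes, Ifna1, Ifna2, Ifna4, Ifna5, Ifne, Il28a, Il28b and Ifng had no fragment in any library. Ifnb1 reached 3.81 normalized counts in LN-LEC replicate 2, from 3 fragments, and 0 in the other 9 libraries. Ifnk averaged 2.38 in LN-LEC and 10.8 in LN-BEC, against 0.84 in D-LEC, and was called in LN-BEC against D-LEC (adjusted p = 0.02), where no D-LEC library held more than 2 fragments. At these depths a count of 0 allows up to 3 fragments, or 0.0613 to 0.134 CPM, counting error only. Ifna genes other than those named were not in the list. Fragments of several places were left out of the counts, and second copies were sought for the members only, not for the ligands or other pathway genes.

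Receptors were higher in the lymph node, 5 of 6 in LN-LEC and 6 of 6 in LN-BEC against D-LEC. Ifnar1 stood at 4202, 4119, 4278 and 3715 in LN-LEC and 5420, 5888 and 4513 in LN-BEC, against 2914, 2831 and 2804 in D-LEC. The populations did not overlap, and it was 1.45-fold over D-LEC in LN-LEC (adjusted p = 0.00039) and 1.86-fold in LN-BEC (adjusted p = 6.1e-06). Ifnar2 averaged 3854 ± 165.5, 4340 ± 485.6 and 2287 ± 252.6, 1.71-fold and 1.9-fold over D-LEC (adjusted p = 2.4e-05 and 6.2e-06). Il28ra, the receptor chain for the lambda interferons, was low, with means of 6.25, 20.9 and 2.13, and was called in LN-BEC alone (adjusted p = 0.0046).

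Of 4 kinase and STAT genes, 1 was higher and 1 lower in LN-LEC than in D-LEC. In LN-BEC 2 were higher and 1 lower than in D-LEC. In so short a list these counts are near the background. Jak1 and Tyk2, which encode the kinases at the receptor, were called in opposite directions. Jak1 stood at 44050, 42130, 45260 and 42520 in LN-LEC and 14440, 15960 and 15620 in LN-BEC, against 7512, 7470 and 7907 in D-LEC. The LN-LEC libraries lay far above all others, 5.79-fold over D-LEC (log2 2.53 ± 0.09, adjusted p = 6e-11) and 2.87-fold over LN-BEC (log2 1.52 ± 0.08, adjusted p = 6.5e-09). Tyk2, the partner kinase of JAK1 at this receptor, went the other way, with 640.2 ± 109.1 in LN-LEC and 678 ± 108.5 in LN-BEC, against 948.1 ± 77.51 in D-LEC, and was lower in both lymph node populations (log2 -0.54 ± 0.14, adjusted p = 0.0063 in LN-LEC, and -0.48 ± 0.15, adjusted p = 0.018 in LN-BEC).

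**Figure D5:**
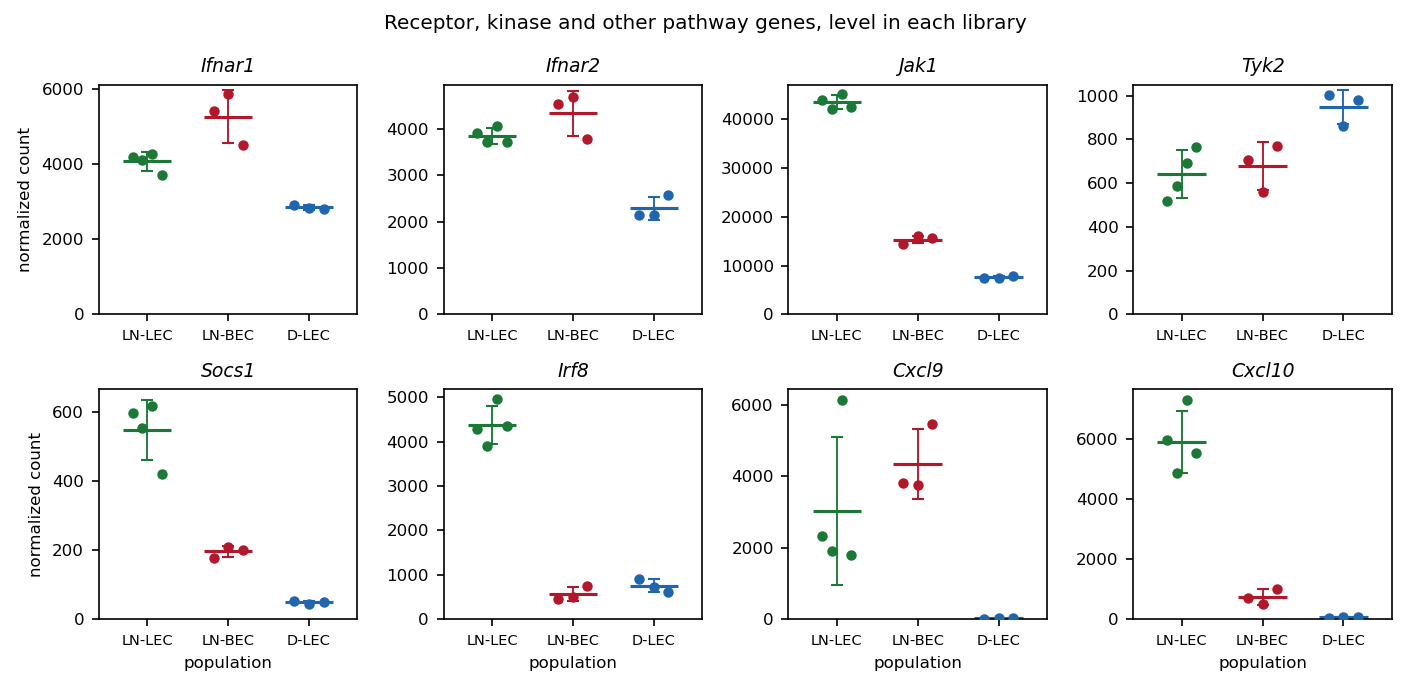
Normalized counts (vertical axes, linear from 0, each gene on its own scale) of 8 pathway genes that are not among the 39. Points are libraries, bars are means with SD (n = 4, 3 and 3 from left to right). Jak1, Socs1, Irf8 and Cxcl10 are highest in LN-LEC, Tyk2 is highest in D-LEC, and Ifnar1, Ifnar2 and Cxcl9 are lowest in D-LEC.

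Of 5 inhibitors, 2 were higher and 1 was lower in each lymph node population than in D-LEC, which in so short a list is near the background. Socs1, which blocks JAK kinases, stood at 597.6, 553.5, 618.5 and 421.8 in LN-LEC and 177.7, 210.1 and 200.6 in LN-BEC, against 53, 45.1 and 49.6 in D-LEC. The populations were apart, 11.3-fold over D-LEC in LN-LEC (log2 3.495 ± 0.173, adjusted p = 1.8e-09) and 4-fold in LN-BEC (log2 2.001 ± 0.176, adjusted p = 4.5e-07). Ptpn6, a phosphatase best known from blood cells, averaged 115.1 ± 19.54, 75.4 ± 19.8 and 9.98 ± 6.99, 12-fold and 7.8-fold over D-LEC (adjusted p = 7.7e-06 and 5.1e-05).

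Among 15 tested genes that lead to interferon production, against D-LEC 10 were higher and 3 lower in LN-LEC, and 8 were higher and 2 lower in LN-BEC. Irf8 stood apart in LN-LEC, with 4381 ± 429.6 against 565.5 ± 156.9 for LN-BEC and 750.9 ± 148.9 for D-LEC (5.94-fold over D-LEC, adjusted p = 3e-07, and 7.85-fold over LN-BEC, adjusted p = 1.1e-07). Ikbke, a kinase upstream of IRF3 and IRF7, was lowest in LN-BEC, with 403.6 ± 71.74, 110.6 ± 3.74 and 577.9 ± 139.3 (LN-BEC 5.19-fold below D-LEC, adjusted p = 2e-07). Tlr7, an endosomal receptor for RNA, was low, with means of 3.97, 16.7 and 1.51, and was called in LN-BEC against D-LEC (adjusted p = 0.014), where no D-LEC library held more than 2 fragments.

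Further interferon-stimulated genes outside the 39 were counted in the same way. Of 29 such genes, against D-LEC 24 were higher and 1 lower in LN-LEC and 22 were higher and 2 lower in LN-BEC, and between the lymph node populations 4 favoured LN-LEC and 8 favoured LN-BEC, where 19.8% and 18.4% of all genes did so. The median log2 fold change was 0.93, 1.23 and -0.06 in the 3 comparisons. Ifi203, of the AIM2-like family of DNA-binding proteins, averaged 1034 ± 173.6 in LN-LEC and 9093 ± 239.6 in LN-BEC, against 67.7 ± 20.6 in D-LEC, 136-fold over D-LEC in LN-BEC (adjusted p = 5.3e-11) and 15.7-fold in LN-LEC (adjusted p = 3.5e-09). Mnda, of the same family, averaged 189.7 ± 29.35, 464.5 ± 57.16 and 12.8 ± 1.94, and Slfn8 averaged 519.6 ± 94.7, 412.4 ± 35.58 and 65.6 ± 8.66. Each passed 5-fold over D-LEC in both lymph node populations, as did the low-count Oas1g (17.3, 37.7 and 1.34). Second copies in the genome were not sought for genes outside the 39, so that any effect of them on these levels is not known. Ifi27l2a ran in another order, with 14990 ± 3183 in LN-LEC and 2193 ± 963 in LN-BEC, against 8280 ± 138.6 in D-LEC, 6.92-fold higher in LN-LEC than LN-BEC (adjusted p = 5.2e-05).

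Genes known as targets of interferon gamma were counted apart. Of 6, against D-LEC, 4 were higher and 1 lower in LN-LEC and 5 were higher in LN-BEC. Cxcl9, a chemokine for T cells, stood at 2315, 1902, 6127 and 1799 in LN-LEC and 3799, 3753 and 5463 in LN-BEC, against 10.1, 24.1 and 26.4 in D-LEC. It was 145-fold over D-LEC in LN-LEC (log2 7.18 ± 0.72, adjusted p = 7.7e-05) and 205-fold in LN-BEC (log2 7.68 ± 0.73, adjusted p = 5.4e-05), with LN-LEC replicate 3 far above the other LN-LEC libraries. Cxcl10, which binds the same chemokine receptor, averaged 5915 ± 1028 in LN-LEC and 738.3 ± 256.7 in LN-BEC, against 61.8 ± 22.1 in D-LEC, 94.6-fold over D-LEC in LN-LEC (adjusted p = 3.2e-07), 11.7-fold in LN-BEC (adjusted p = 1.5e-05) and 8.12-fold higher in LN-LEC than LN-BEC (adjusted p = 1.9e-05). Ciita, the activator of class II antigen presentation genes, averaged 36.5, 90.9 and 12.7, 7.07-fold over D-LEC in LN-BEC (adjusted p = 5.9e-05). Ido1, which degrades tryptophan, was below D-LEC in LN-LEC, with means of 10.7, 40.8 and 60.3 (5.25-fold, adjusted p = 0.0013).

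Markers of other cells and of cell handling differed between the populations too. Of 13 leukocyte markers, LN-BEC exceeded D-LEC in 8 and LN-LEC in 8, most of them T and B cell genes, and LN-LEC exceeded D-LEC in 4. In the other direction, D-LEC exceeded LN-LEC in 1 (Cd68, 451.1 against 144.2, adjusted p = 0.00053). D-LEC also exceeded LN-BEC in 1 (Csf1r, 58.3 against 25.7, adjusted p = 0.049), and LN-LEC exceeded LN-BEC in 1 (Siglech). Their summed level was 1146 to 1398 normalized counts in LN-BEC libraries, 388.9 to 499.8 in LN-LEC and 534.6 to 913.8 in D-LEC. Ptprc, which encodes CD45, averaged 284.5 in LN-BEC, 40.3 in LN-LEC and 14.9 in D-LEC, and Siglech, a marker of plasmacytoid dendritic cells, averaged 4.07, 24 and 0.75 in the same order. Of 5 fibroblast and pericyte markers, 3 exceeded D-LEC in LN-BEC (Cspg4 by 13.8-fold, Pdgfrb by 9.92-fold and Des by 3.18-fold) and 2 did so in LN-LEC (Pdgfrb by 2.72-fold and Des by 1.97-fold), with sums of 806.9 to 1612 in LN-BEC libraries, 461.3 to 1174 in LN-LEC and 271.5 to 1164 in D-LEC. Of 7 genes that tissue dissociation induces, all 7 were higher in D-LEC than LN-LEC and 4 were higher in D-LEC than LN-BEC, with sums of 202000 to 234200 in D-LEC, 72640 to 137300 in LN-BEC and 26040 to 72150 in LN-LEC. Of 5 skeletal muscle genes, all 5 were higher in D-LEC than in each lymph node population, with sums of 888 to 1225 against 100.8 at most. The part of leukocyte RNA, fibroblast and pericyte RNA, dissociation and muscle RNA in the results above was not tested. In bulk samples, a smaller share of cells with a transcript and less of it in each cell cannot be told apart.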

How the data were processed

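RNA of 10 libraries was amplified with the NuGEN Ovation kit and sequenced as read pairs. The authors trimmed the reads, used STAR for alignment to mm9, and took exon counts per gene symbol from featureCounts (version 1.4.4), with both ends mapped, strand ignored, and fragments of several places or genes left out. The deposited values are these raw counts, beside a column of exon length (deposited by the authors, in bases). Libraries were grouped by their labels. Pooled libraries carry no batch or pairing labels, and none was modelled.

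Normalized counts are counts divided by DESeq2 1.42.0 size factors. Predicted and clone symbols (3753 of 23284) were left out, and 15375 genes whose mean reached 1 normalized count in a population were tested in edgeR 4.0.16 under R 4.3.3 (TMM factors, robust quasi-likelihood fit of 3 means to 10 libraries, Benjamini-Hochberg adjustment). The pipeline was tested on simulated data, where it recovered 56.5% to 64% of 2-fold changes and 88% to 89.5% of 8-fold changes. False calls made up 3.78% to 5.6% of the calls. Each SE is the size of the log2 fold change over the square root of its F statistic. Second copies of 100-base exon windows of the members were sought in mm9, and motifs in RefSeq promoters, with Python 3.11.15. Alternatives were DESeq2, 2 other normalizations, 2 other filters, clone symbols kept, only the 2 populations compared, and libraries left out.

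All 39 members are named. Those called at 5-fold or more in a comparison, and Irf1, Irf7, Irf9 and Stat2, are given library by library. Other pathway genes are named when called at 5-fold or more, or when they are Ifnar1, Ifnar2, Jak1, Tyk2 or Ifnb1, and 1 further gene of that rule is not reported here. The members and the lists were chosen with earlier results of these data known. Ifi27 and Helz2, listed among the further interferon-stimulated genes, were not matched to a symbol in the table.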

Additional observations from a re-analysis of the deposited data

Results flagged for a closer look

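Within LN-LEC, the population with 4 libraries, each member was examined for a library that lay far from the other 3, by Dixon's ratio of the gap to the range at the 95% level. Of 39 members 2 were picked out, and both had the low value in LN-LEC replicate 2. The members varied together within LN-LEC, so that a rate of 1 in 20 for independent genes cannot be set against this count. Oasl2 had 1162 normalized counts there against 1702 to 1729 in the other 3 libraries (ratio 0.952). Ifit3 had 633.5 there against 969.4 to 996.8 (ratio 0.925). Without that library Ifit3 was called higher in LN-LEC than D-LEC (log2 fold change 0.51 ± 0.15, edgeR adjusted p = 0.014).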

How the results depend on the processing

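Under the 18 alternatives, 34 to 36 members were called in LN-LEC against D-LEC, 35 to 37 in LN-BEC against D-LEC and 23 to 25 in LN-LEC against LN-BEC, with none called higher in D-LEC under any of them. Of the calls made with all libraries, 33 of 34, 35 of 37 and 23 of 25 held under every alternative, and the exceptions were Ifitm3, then Adar and Pml, then Ddx58 and Oas1a. Pml was lost in LN-BEC against D-LEC under 8 alternatives. Scaling by exon length changes levels between genes and no comparison between populations. No paired analysis was possible because replicate numbers follow the order of the records and the labels tie no library of one population to a library of another. Signs turned only for differences near 0 that were not called. For Usp18 in LN-LEC over LN-BEC, log2 0.000462 became -0.0148 with DESeq2, -0.0158 with DESeq2 size factors, -0.0253 with upper-quartile factors, -0.00167 with no filter, -0.00914 with filterByExpr, -0.000149 with clone symbols kept, -0.00235 with the 2 populations alone and -0.045 without both LN-BEC replicate 3 and LN-LEC replicate 4. For Trim30a there, 0.00147 became -0.0133, -0.0144, -0.0232, -3.05e-05, -0.00805, -0.000711 (2 populations alone) and -0.00523 (without both libraries) in that order, without clone symbols. For Oas3 there, leaving out both libraries gave -0.0999. For Samd9l in LN-LEC over D-LEC, 0.00711 became -0.00422 with DESeq2, -0.0137 with its size factors, -0.00277 with upper-quartile factors, -0.00309 with clone symbols and -0.00719 with the 2 populations alone. For Irf9 in LN-BEC over D-LEC, -0.000732 became 0.00241 with DESeq2, 0.0142 with upper-quartile factors and 0.00379 with filterByExpr. With 1 library left out at a time, or both of those, the log2 values ran from -0.0943 to 0.104 for Usp18, -0.0747 to 0.0561 for Trim30a, -0.0547 to 0.136 for Parp14, -0.358 to 0.878 for Oas3 and -0.0141 to 0.125 for Ifi44 (LN-LEC over LN-BEC), -0.0603 to 0.0547 for Samd9l (LN-LEC over D-LEC) and -0.0892 to 0.0499 for Irf9 (LN-BEC over D-LEC). The cause was not tested. Depth limits Oas3, and Mx1 and Oas2 in D-LEC, which rest on 5, 12 and 24 D-LEC fragments.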
